A study of Homo sapiens with 6 samples.

Results

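The heat shock chaperones examined here are the genes of the cytosolic and mitochondrial folding machinery, chosen by symbol: HSPA, HSPB and HSPH1 (the HSP70, small heat shock protein and HSP110 families), HSPD1 and HSPE1, the HSP90A genes, the J-domain families DNAJA, DNAJB and DNAJC, BAG1 to BAG6, the HSP90 cochaperones CHORDC1, STIP1 and CDC37, and the transcription factor HSF1. The choice by symbol left out the endoplasmic reticulum (ER) proteins HSPA5, DNAJB9, DNAJB11, DNAJC3 and DNAJC10. It gave 76 of the 17534 genes on the arrays, read by 210 probe sets, and 20 of the 76 had a single probe set. Of the 76, 75 are protein-coding genes and DNAJB3 is a transcribed pseudogene. AHSA1 and HSF2 are not analysed here. HSPBP1 and HSPBAP1, which entered through their first letters, encode proteins that bind HSP70 and HSPB1 and are no small heat shock proteins, and HSPA13 and DNAJC1 are known as ER proteins, so the set is not purely cytosolic and mitochondrial.

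Expression had been measured on Affymetrix PrimeView arrays in MM.1R, a human multiple myeloma line resistant to glucocorticoids, with 3 arrays of control cells, infected with the vector labelled shCtrl, and 3 arrays of cells given Epirubicin Hydrochloride, an anthracycline that traps topoisomerase II on DNA. All 6 arrays came from this single line. No infection is named for the treated cells, and an effect of the drug and one of the vector therefore cannot be told apart. Neither dose nor time of exposure is given in the labels. The labels do not call the replicates separate cultures; p-values then measure the spread between these arrays only, which may be technical.

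Heat shock proteins keep other proteins folded. J-domain proteins bring clients to HSP70 and start its ATP cycle, nucleotide exchange factors such as HSPH1, the BAG proteins and HSPBP1 release the client, and STIP1 hands it to HSP90, while HSPD1 and its lid HSPE1 form the folding chamber of mitochondria. Many of these genes are switched on together by HSF1, which binds heat shock elements, inverted repeats of GAA, in their promoters; plasma cells, which make large amounts of antibody, carry a heavy folding load.

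With epirubicin 7 of the 76 genes fell and 0 rose. The 7 were CHORDC1, STIP1, HSPH1, HSPE1, BAG3, BAG2 and HSP90AA1, with folds between 1.303 for HSP90AA1 and 1.538 for CHORDC1. A gene counts as fallen or risen here at a limma adjusted p under 0.05, adjusted over all 17534 genes, and a fold of at least 1.3 (0.38 on the log2 scale). The 7 are 9.21% of the members, beside 2.14% of all genes lower, 4.36% higher and 6.51% called either way. In limma at an unadjusted p under 0.05, 33 members (43.4%) lay lower, beside 17.8% of all genes, and 16 (21.1%) lay higher, beside 21.5% of all genes; the higher share is near that background.

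Smaller differences were common. At an adjusted p under 0.05 and any fold, 28 members lay lower and 7 higher, where 13.5% of all genes were lower and 15.6% higher. On 31 members (40.8%) all 3 epirubicin arrays lay below all 3 control arrays, beside 20.1% of all genes; on 17 (22.4%) they lay above, beside 23.8%. The median log2 fold change was -0.06 over the members and 0.02 over all genes, and 48 of the 76 (63.2%) lay below 0, beside 44.3% of all genes. In bulk RNA, fewer cells of a type and less RNA per cell cannot be told apart.

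**Figure D1:**
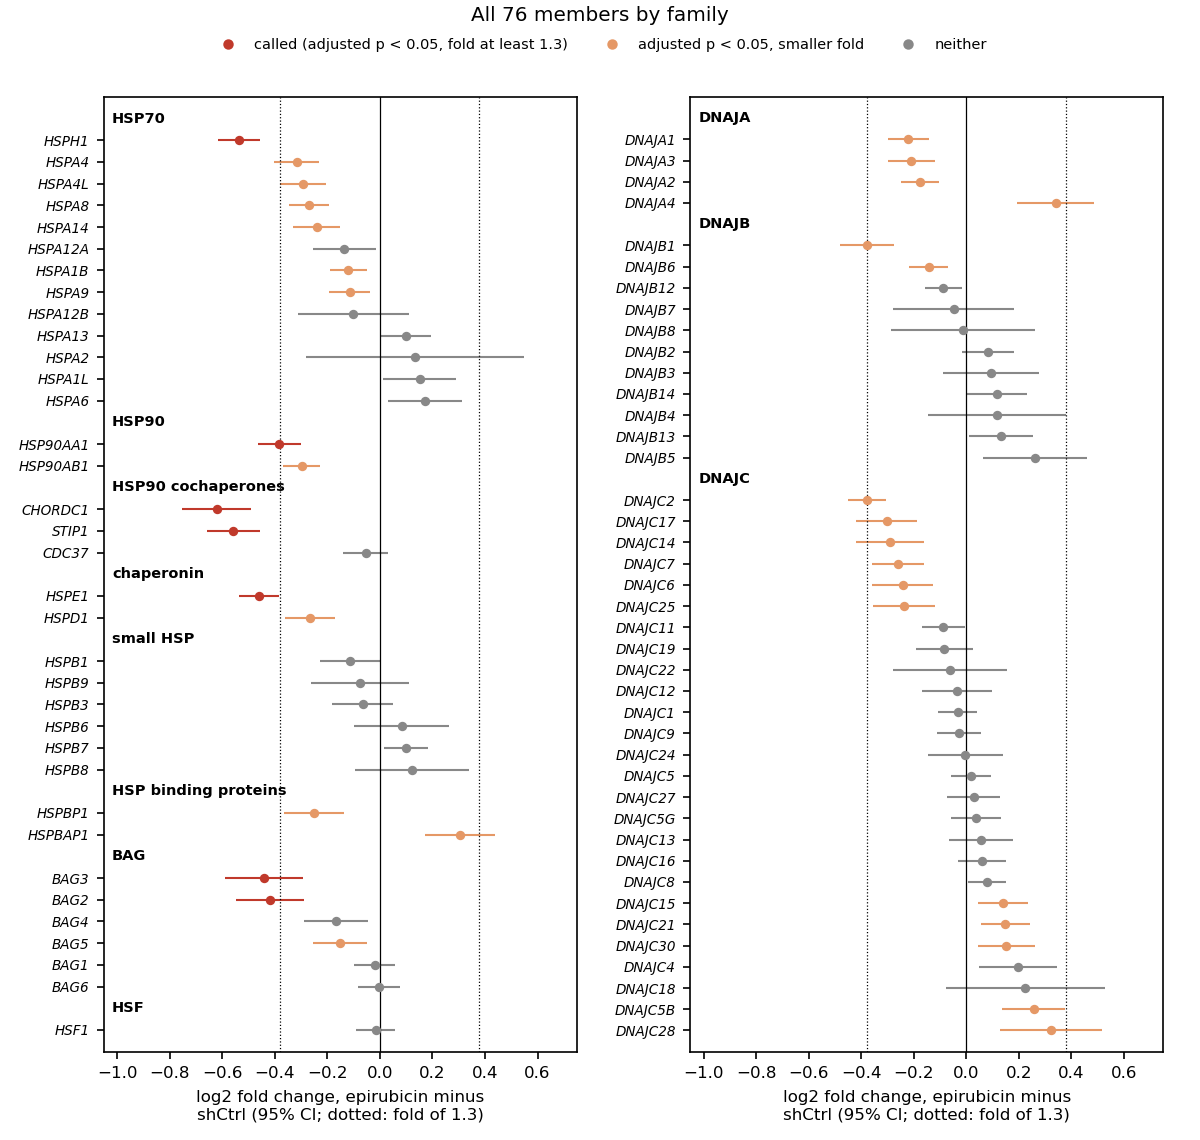
Log2 fold change of epirubicin minus shCtrl for each of the 76 members, grouped by family, as a point with limma's 95% confidence interval; dotted lines mark a fold of 1.3, red marks called genes and orange an adjusted p under 0.05 at a smaller fold. All 7 called members lie on the left, in the HSP70, HSP90, HSP90 cochaperone, chaperonin and BAG groups, and none of the J-domain genes passes the fold line.

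Heat shock elements were looked for in the promoters, since the choice by symbol did not use sequence. RefSeq windows of GRCh38.p14, 250 bases before to 50 after a transcript start, were on hand for 91 starts of 67 members. The element searched had 3 units, GAA, TTC and GAA, with any 2 bases between neighbouring units, on both strands, and overlapping matches were counted apart. It stood in 8 of the 91 windows (8.79%), 1 each for CHORDC1, HSP90AA1, HSP90AB1, HSPA8, HSPD1, DNAJA1, DNAJB6 and HSPA6, and in 172 of all 35116 windows (0.49%). Its first 2 units, written GAANNTTC, stood in 19 of the 91 (20.9%) and in 6.77% of all windows. A match of letters does not show binding.

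Promoter sequences are shown because they place the element next to the change of each gene; each runs from 20 bases before the first element to the base before the start, on the strand of the gene, with the elements in capitals. CHORDC1, the gene that fell most, has 3 overlapping elements that end 38 bases before its start (chr11:90223050-90223129, minus strand). HSP90AA1 has 1 (chr14:102087045-102087152, minus strand), HSPA8 has 2 (chr11:123062137-123062386, minus strand), and DNAJB6 has 1 (chr7:157336853-157337003, plus strand). HSPA6, printed as the one gene of the 8 whose value lay above 0, has 1 (chr1:161524446-161524539, plus strand).
CHORDC1: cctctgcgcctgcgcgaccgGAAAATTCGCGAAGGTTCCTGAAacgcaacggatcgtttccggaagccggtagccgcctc
HSP90AA1: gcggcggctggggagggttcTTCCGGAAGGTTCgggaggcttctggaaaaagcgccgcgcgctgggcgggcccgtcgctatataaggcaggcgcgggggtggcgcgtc
HSPA8: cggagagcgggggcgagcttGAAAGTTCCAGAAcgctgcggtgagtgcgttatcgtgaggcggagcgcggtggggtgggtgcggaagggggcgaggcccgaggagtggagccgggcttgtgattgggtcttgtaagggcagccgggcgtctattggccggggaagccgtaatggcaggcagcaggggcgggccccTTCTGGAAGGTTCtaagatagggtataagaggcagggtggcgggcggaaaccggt
DNAJB6: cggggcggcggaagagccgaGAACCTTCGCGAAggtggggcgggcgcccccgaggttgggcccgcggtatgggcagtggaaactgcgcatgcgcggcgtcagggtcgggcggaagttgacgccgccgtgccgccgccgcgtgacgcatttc
HSPA6: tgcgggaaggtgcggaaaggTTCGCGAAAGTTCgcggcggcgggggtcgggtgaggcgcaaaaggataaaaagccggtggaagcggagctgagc

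Of the 8 genes with an element 2 fell, 7 had a value below 0, and their median log2 fold change was -0.27. Of the 59 members with a window and no match 5 fell, with a median of -0.04. The 71 other measured genes with the element had a median of 0.004 and a range of -0.34 to 0.47, and 0 of them fell and 3 rose. Of the 14076 measured genes with a window and no match 314 fell and 622 rose, with a median of 0.02. Over all genes 2.14% fell and 4.36% rose, and the 3 risen of the 71 are near that share. STIP1, HSPH1, HSPE1, BAG3 and BAG2 fell without a match in their windows, which says only that these letters are not there.

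Among HSP90 and its helpers CHORDC1, STIP1 and HSP90AA1 fell, and CDC37 and HSP90AB1 did not pass. CHORDC1, a cochaperone that binds HSP90 through its zinc-binding domains, read 9.50, 9.60 and 9.66 on the control arrays and 9.04, 8.93 and 8.93 with epirubicin, in log2 units. The lowest control array lay 0.46 above the highest epirubicin array, and the difference was -0.62 (95% CI -0.75 to -0.49, limma adjusted p = 0.000426). All 6 of its probe sets were called lower, from -0.69 to -0.49.

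STIP1, also called HOP, which holds HSP70 and HSP90 at the same time, read 9.70, 9.62 and 9.74 in controls and 9.11, 9.17 and 9.10 with epirubicin. The groups lay 0.45 apart, and the difference was -0.56 (SE 0.04, limma adjusted p = 0.000234), with -0.56 on its other probe set too. CDC37, which brings kinases to HSP90, read 8.74, 8.74 and 8.69 against 8.66, 8.72 and 8.64. Its groups overlapped, with a log2 fold change of -0.05 (95% CI -0.14 to 0.03).

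HSP90AA1, the stress-inducible HSP90, read 10.90, 10.85 and 10.93 in controls and 10.50, 10.53 and 10.50 with epirubicin. The difference of -0.38 (SE 0.03, limma adjusted p = 0.000471) lay just inside the fold threshold, and its call was lost without shCtrl replicate 3 (-0.36), without epirubicin replicate 1 (-0.38) and with quantile normalization (-0.36). Its second, dimmer probe set gave -0.56. HSP90AB1, the constitutive HSP90, read 12.03, 12.02 and 12.02 against 11.75, 11.72 and 11.71. At -0.30 (SE 0.03, limma adjusted p = 0.000666) it stayed under the fold threshold with no overlap between groups.

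**Figure D2:**
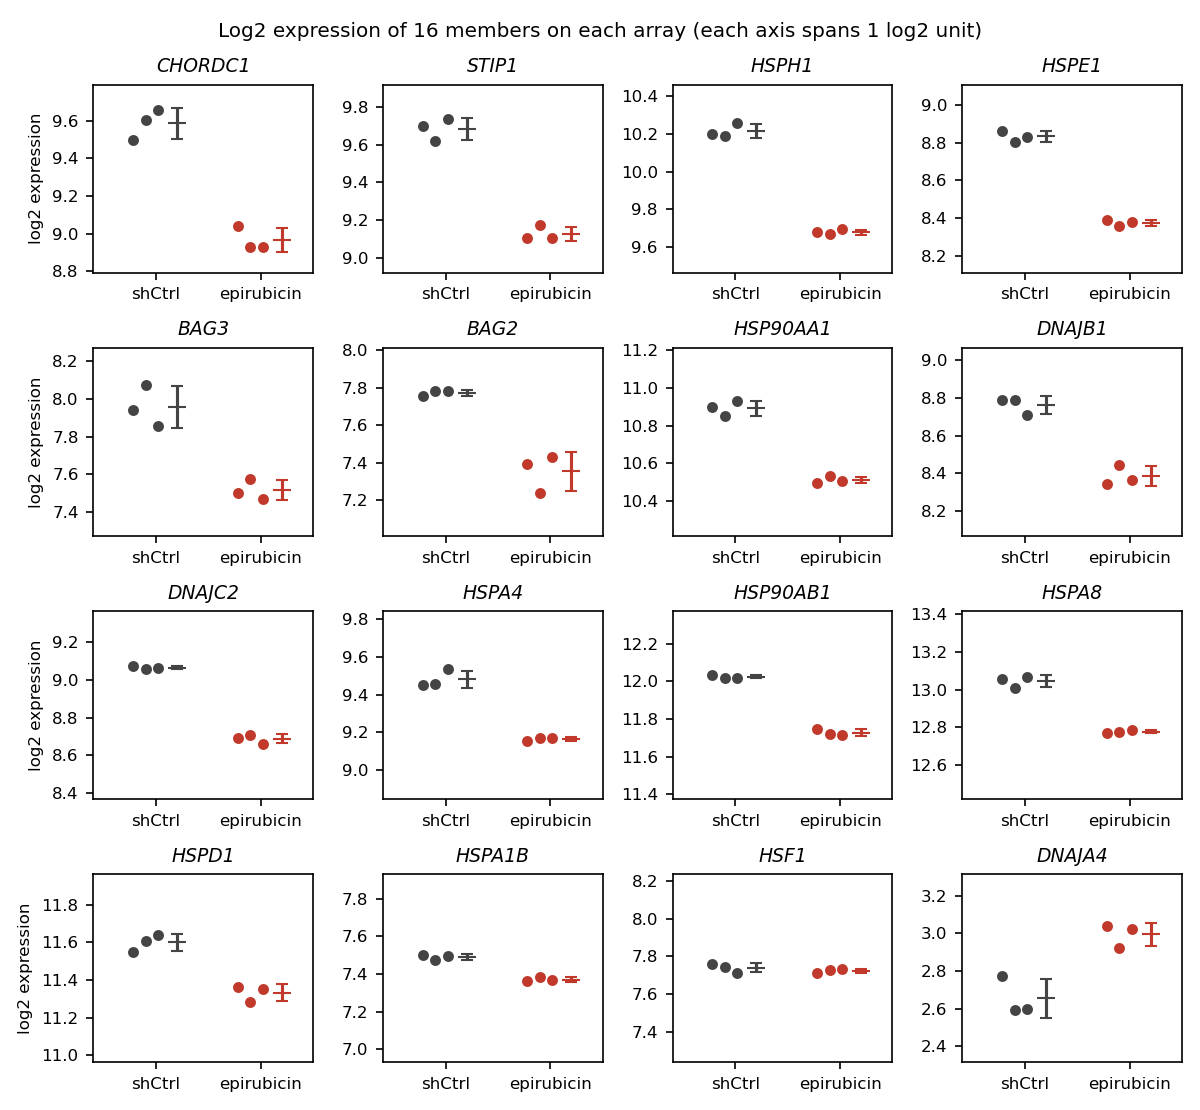
Log2 expression of 16 members on each of the 3 shCtrl and 3 epirubicin arrays, as points, with the group mean and SD as a bar beside them; every axis spans 1 log2 unit. The groups are apart for all genes shown but HSF1, and DNAJA4, between 2.59 and 3.04, is the one shown with higher epirubicin arrays.

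Among the 13 HSP70 and HSP110 genes 1 (7.69%) fell and 0 rose, beside 2.14% and 4.36% of all genes. In limma 8 (61.5%) lay lower and 3 (23.1%) higher at an unadjusted p under 0.05, beside 17.8% and 21.5% of all genes. Of the 13, 8 lay above the median level of all genes, where these shares were 30.6% and 28.3%. HSPH1, which encodes HSP110, a nucleotide exchange factor for HSP70, read 10.20, 10.19 and 10.26 in controls and 9.68, 9.67 and 9.69 with epirubicin. The groups lay 0.49 apart, beside an SD of 0.04 in controls and 0.01 with epirubicin (n = 3 each), and the difference was -0.54 (SE 0.03, limma adjusted p = 0.000117). All 8 of its probe sets were called lower, from -0.69 to -0.51.

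The relatives of HSPH1 moved less on the probe sets used. HSPA4, another HSP110-like exchange factor, read 9.45, 9.45 and 9.53 against 9.15, 9.17 and 9.17, a log2 fold change of -0.32 (SE 0.04, limma adjusted p = 0.00106), and HSPA4L lay at -0.29 (SE 0.04). Both were under the fold threshold. The mean over the 4 probe sets of HSPA4 was -0.38 and passed it.

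HSPA8, the constitutive cytosolic HSC70 and the brightest member, read 13.06, 13.01 and 13.07 in controls and 12.77, 12.77 and 12.78 with epirubicin. The difference on this probe set was -0.27 (SE 0.03, limma adjusted p = 0.00125). All 9 of its probe sets lay below 0 and 4 of them were called lower. The 4 brightest, at levels of 12.35 to 12.91, gave -0.32 to -0.27, and the 5 dimmer ones, at 5.35 to 8.43, gave -0.72 to -0.37. As a mean over all 9 HSPA8 was called lower at -0.41.

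The strongly heat-inducible HSP70 genes showed little. HSPA1B read 7.50, 7.47 and 7.50 in controls and 7.36, 7.38 and 7.37 with epirubicin, a log2 fold change of -0.12 (SE 0.03, limma adjusted p = 0.0238), a 1.087-fold difference under the threshold. Its near-identical neighbour HSPA1A had no probe set of its own. The 4 probe sets that name both genes gave -0.17 to -0.08 and were not called, and which of the 2 genes gave the signal cannot be told.

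HSPA6, a heat-inducible gene close to HSPA1A in sequence, read 4.98, 4.76 and 4.84 against 5.02, 5.06 and 5.02. The epirubicin arrays lay above the controls by 0.03 at the closest, and the difference of 0.17, with a 95% CI from 0.03 to 0.31, missed the threshold (limma adjusted p = 0.0749). HSPA6 was dim, at a mean level of 4.95, and a probe set shared with HSPA7 gave 0.09 with overlapping groups. HSPA14, a ribosome-associated HSP70, lay at -0.24 (SE 0.04, limma adjusted p = 0.00401). HSPA2, HSPA1L, HSPA12A and HSPA12B were dim, with mean levels from 2.57 to 4.76, and uncalled.

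In the mitochondrial chaperonin HSPE1 fell and HSPD1 stayed under the fold threshold. HSPE1, the lid, read 8.86, 8.81 and 8.83 in controls and 8.39, 8.36 and 8.38 with epirubicin, a log2 fold change of -0.46 (SE 0.03, limma adjusted p = 0.000166). The 2 probe sets shared with the readthrough transcript HSPE1-MOB4 gave -0.44 and -0.34; the second of these is the brightest, and the call of HSPE1 was lost when it stood for the gene. HSPD1, the barrel, read 11.55, 11.61 and 11.64 against 11.36, 11.28 and 11.35, a difference of -0.27 (SE 0.04, limma adjusted p = 0.0034), with 1 of 7 probe sets called lower and all 7 between -0.39 and -0.27. The starts of the 2 genes face away from each other on chromosome 2, HSPD1 on the minus strand at 197500274 or, from a second start, at 197499840, and HSPE1 on the plus strand at 197500379 (GRCh38.p14). Both HSPD1 elements lie in the window of the start at 197499840, and the window of the other start has 0.

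Of 9 mitochondrial members HSPE1 was the one that fell (11.1%, beside 2.14% of all genes), and 0 rose. At an unadjusted p under 0.05 in limma 5 (55.6%) lay below and 3 (33.3%) above 0, beside 17.8% and 21.5% of all genes. Of the 9, 8 lay above the median level of all genes, where these shares were 30.6% and 28.3%. HSPA9, the mitochondrial HSP70 (mortalin), lay at -0.11 (SE 0.03, limma adjusted p = 0.0409) and its J-domain partner DNAJA3 at -0.21 (SE 0.04, limma adjusted p = 0.0068). DNAJC15, DNAJC30 and DNAJC28, J-domain proteins of mitochondria, lay above 0 on the probe sets used, at 0.14, 0.15 and 0.32, each under the fold threshold. The other probe set of DNAJC15 gave -0.02, those of DNAJC30 gave -0.02 and -0.10, and that of DNAJC28 gave 0.13. DNAJC11 and DNAJC19 lay at -0.09 and -0.08 on the probe sets used. The other probe sets of DNAJC11 gave -0.29 and -0.33 and were not called.

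Of the 41 J-domain genes 0 passed the fold threshold in either direction, where 2.14% of all genes fell and 4.36% rose. In limma 13 (31.7%) lay lower and 11 (26.8%) higher at an unadjusted p under 0.05, beside 17.8% and 21.5% of all genes. Of the 41, 29 lay above the median level of all genes, where these shares were 30.6% and 28.3%. Both J-domain shares are near those. DNAJB1, HSP40, the main heat-inducible partner of HSP70, read 8.79, 8.79 and 8.71 in controls and 8.34, 8.45 and 8.36 with epirubicin. Its log2 fold change of -0.3784 fell short of the threshold of 0.3785 (SE 0.04, limma adjusted p = 0.00108), and 1 of its 3 probe sets was called lower. It was called without shCtrl replicate 3, without epirubicin replicate 2 and with array medians centred, at -0.41 in each. DNAJC2, also called MPP11, which works at the ribosome, read 9.07, 9.06 and 9.07 against 8.69, 8.71 and 8.66. It lay as close to the threshold at -0.38 (SE 0.03, limma adjusted p = 0.000301), and passed it in 4 of 15 other settings, at -0.41 to -0.38. HSP90AA1 just inside the threshold and these 2 just outside it therefore differed by less than their SE.

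In the DNAJA family DNAJA1, DNAJA2 and DNAJA3 lay lower, at -0.22, -0.18 and -0.21, all with an adjusted p under 0.05 in limma. DNAJA1, an HSP70 partner in the cytosol, read 10.76, 10.78 and 10.80 against 10.59, 10.56 and 10.53, with no overlap. DNAJA4 went the other way, at 2.77, 2.59 and 2.60 in controls and 3.04, 2.92 and 3.02 with epirubicin. The difference of 0.34 (SE 0.06, limma adjusted p = 0.00682) was the largest upward value of all members, on a probe set at the dim end of the array, and its other probe set gave 0.07. DNAJA4 was called higher without shCtrl replicate 1 (0.40), and DNAJC28 without epirubicin replicate 3 (0.38), so the count of 0 risen members did not hold there.

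DNAJB6, which keeps aggregation-prone proteins soluble, differed between its probe sets. Its 2 brighter probe sets, at mean levels of 10.12 and 8.94, lay at -0.14 and -0.16, and its 3 dimmer ones, at 5.41 to 6.73, were called lower at -0.63 to -0.61. A pair of the dimmer probe sets held identical values on all arrays and count as 1 reading. As a mean over all 5 DNAJB6 was called lower at -0.43, and over the 4 distinct ones at -0.39 (SE 0.03, limma adjusted p = 0.000248), just past the threshold. DNAJB4, the other member of this family in the inducible list, read 5.58, 5.69 and 5.32 against 5.81, 5.56 and 5.57 and was not called (0.12, SE 0.11).

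The 26 DNAJC genes spread evenly, 13 below and 13 above 0, with a median of 0.01. Besides DNAJC2, those with an adjusted p under 0.05 in limma on the lower side were DNAJC17 at -0.30, DNAJC14 at -0.29, DNAJC7, which binds both HSP70 and HSP90, at -0.26, the clathrin-uncoating factor DNAJC6 at -0.24 and DNAJC25 at -0.24. On the higher side were DNAJC28, DNAJC5B at 0.26, DNAJC30, DNAJC21, a factor of ribosome assembly, at 0.15, and DNAJC15. These values come from the brightest probe set of each gene, and other probe sets of DNAJC30 and DNAJC15 lay below 0. All these genes stayed under the fold threshold. DNAJC9, which also escorts histones, was bright at 10.46 and lay at -0.03.

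BAG3 and BAG2 fell while the other BAG genes did not pass. BAG3, which links HSP70 to selective autophagy, read 7.94, 8.08 and 7.86 in controls and 7.50, 7.57 and 7.47 with epirubicin, a log2 fold change of -0.44 (SE 0.06, limma adjusted p = 0.00258). BAG2, an inhibitor of the HSP70-bound ubiquitin ligase CHIP, read 7.75, 7.78 and 7.78 against 7.39, 7.24 and 7.43, a difference of -0.42 (SE 0.05, limma adjusted p = 0.00183). Epirubicin replicate 2 was the lowest for BAG2, and without it the difference was -0.36 and no longer called.

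BAG4 lay at -0.17 (SE 0.05, limma adjusted p = 0.0515). BAG5 lay at -0.15 (SE 0.04, limma adjusted p = 0.0375), under the fold threshold. BAG1, which binds BCL2, lay at -0.02 and BAG6, a quality control factor for membrane proteins, at -0.003. The 2 HSP-binding proteins went opposite ways: HSPBP1, an exchange factor, at -0.25 (SE 0.05, limma adjusted p = 0.00878) and HSPBAP1 at 0.30 (SE 0.06, limma adjusted p = 0.0075), neither past the fold threshold. HSPBAP1 read 6.36, 6.23 and 6.22 against 6.61, 6.62 and 6.49.

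The transcript of HSF1 itself, the regulator of the heat shock genes, read 7.76, 7.74 and 7.71 in controls and 7.71, 7.73 and 7.73 with epirubicin. The groups overlapped and the log2 fold change was -0.02 (95% CI -0.09 to 0.06). HSF1 is largely controlled after translation, which these arrays do not measure. Among the 6 small heat shock proteins 0 fell or rose. At an unadjusted p under 0.05 in limma 1 lay each way (16.7%), beside 17.8% lower and 21.5% higher over all genes. HSPB1, HSP27, was the one measured above the median gene level and lay at -0.11 (95% CI -0.23 to -0.001, limma adjusted p = 0.124) with overlapping groups, and the other 5 had mean levels from 3.20 to 5.60.

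**Figure D3:**
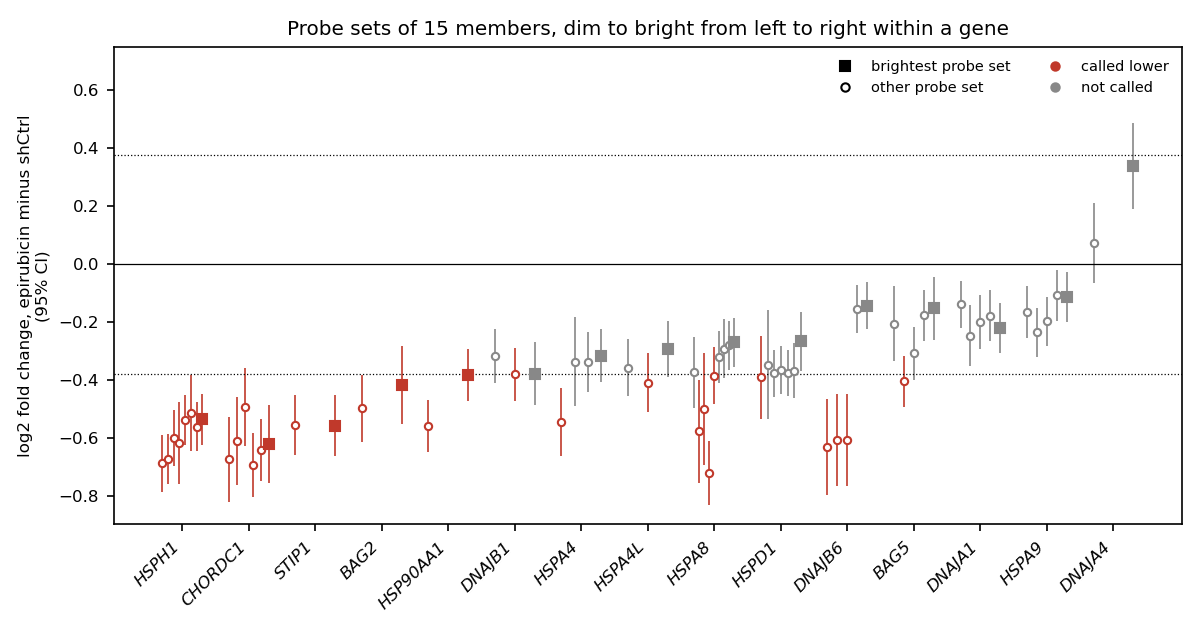
Log2 fold change with 95% confidence interval of every probe set of 15 members, dim to bright from left to right within a gene; squares mark the probe set used for the gene, red the probe sets called lower, and dotted lines a fold of 1.3. All 8 probe sets of HSPH1 and all 6 of CHORDC1 are red, and HSPA8 and DNAJB6 hold both red and grey ones.

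Over all 210 probe sets of the members 34 were called lower (16.2%), 33 of them distinct once the identical DNAJB6 pair is counted once, and 0 higher, beside 2.62% of all 47481 probe sets lower and 3.65% higher. They belonged to 14 members: the 7 that fell and a further 7, DNAJB1, HSPA4, HSPA4L, HSPA8, HSPD1, DNAJB6 and BAG5, whose brightest probe set did not pass. Every probe set was called for 5 of the 56 members with several: HSPH1, CHORDC1, STIP1, BAG2 and HSP90AA1. The mean over all probe sets of a gene called 10 members lower, the 7 with HSPA4, HSPA8 and DNAJB6.

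The members are brighter than most genes, with a median level of 7.81 beside 6.09 over all genes. Of the 54 members above that median level 7 (12.96%) fell and none was called higher, beside 3.49% of all genes above it lower and 5.91% higher. At an unadjusted p under 0.05 in limma 32 (59.3%) of the 54 lay lower and 9 (16.7%) higher, beside 30.6% and 28.3%. The median log2 fold change of the 54 was -0.13, beside -0.003 for all genes above that level. Of the 22 dimmer members 0 were called, 7 being higher and 1 lower at an unadjusted p under 0.05 in limma, and their median was 0.10.

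**Figure D4:**
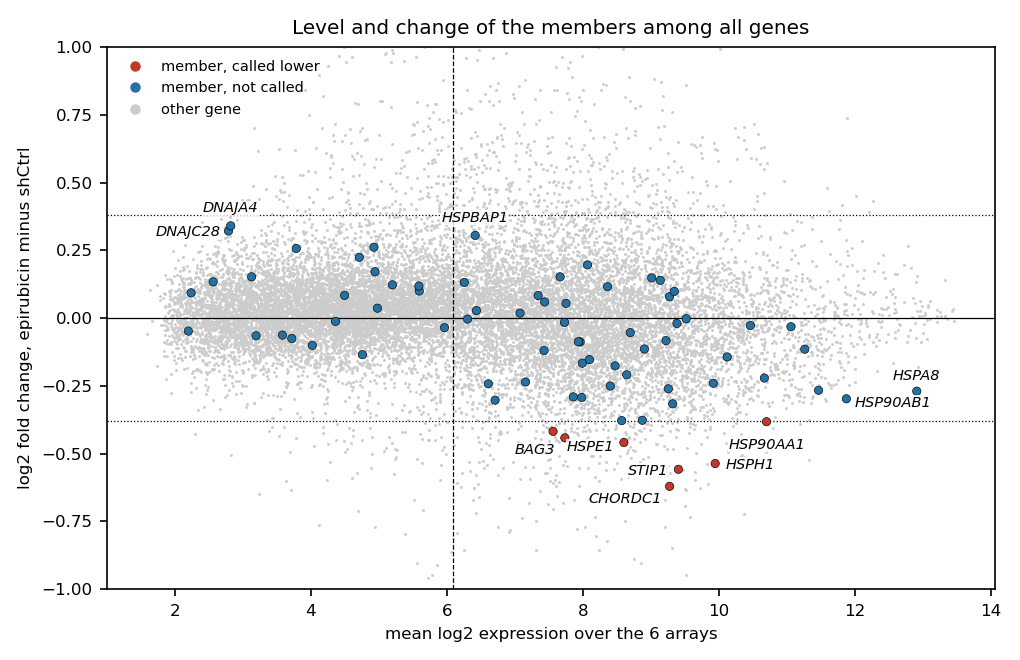
Log2 fold change against mean log2 level over the 6 arrays for the members (red called lower, blue not called) and all other genes (grey); the dashed line is the median level of all genes, and genes beyond 1 log2 unit lie outside the axis. The 7 called members lie between levels of 7.56 and 10.70, and the largest upward members, DNAJA4 and DNAJC28, lie near the dim end.

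Most of the genes that fell are in a list of HSF1-driven chaperones, called the inducible core here. The list is not purely heat-inducible, as it holds HSPA8 and HSP90AB1, described above as constitutive. HSPA1B, HSPA6, DNAJB1 and HSPB1 are in it too and were not called. Of its 16 measured genes 6 (37.5%) fell and 0 rose, with a median of -0.31 and 14 of 16 below 0. At an unadjusted p under 0.05 in limma 14 (87.5%) lay lower and 1 (6.25%) higher. Of the 60 other members 1 (1.67%) fell, BAG2, and 0 rose, with a median of -0.02. At the same p 19 (31.7%) of them lay lower and 15 (25%) higher. Over all genes 2.14% fell, and at that p 17.8% lay lower and 21.5% higher. Among genes above the median level, where 14 of the 16 core genes lie, these shares were 3.49%, 30.6% and 28.3%. The higher share of the 60 is near these backgrounds. HSPA6 and DNAJB4 were the 2 core genes above 0. The list was drawn up with earlier results of these data known and is no independent evidence of its direction, and the core and the rest were compared by counts alone.

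Partners of HSP90 outside the chosen symbols included further lower genes. Of 22 measured, 4 (18.2%) fell and 1 (4.5%) rose, beside 2.14% and 4.36% of all genes, with a median of -0.16. All 22 lay above the median gene level, where 3.49% of genes fell and 5.91% rose. At an unadjusted p under 0.05 in limma 17 (77.3%) lay lower and 2 (9.1%) higher. Among genes above the median level 30.6% lay lower and 28.3% higher. FKBP4, the FKBP52 immunophilin of steroid receptor complexes, read 9.93, 9.94 and 9.92 in controls and 9.31, 9.40 and 9.38 with epirubicin (-0.57, SE 0.04). RUVBL1, a helicase-like subunit of the R2TP complex that works with HSP90, lay at -0.55 (SE 0.05), and its partner RUVBL2, named after its value was seen, at -0.41 (SE 0.03), a call lost as a mean over its 4 probe sets at -0.32. TOMM70, the import receptor of mitochondria that docks HSP90 and HSP70, lay at -0.41 (SE 0.04), a call lost with quantile normalization at -0.38. FNIP2, a folliculin-interacting inhibitor of the HSP90 ATPase, rose by 0.57 (SE 0.05), from 7.95, 7.90 and 8.02 to 8.48, 8.61 and 8.49. The limma adjusted p of these 5 ran from 0.000114 to 0.000475.

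Of 13 folding factors and proteases of mitochondria 1 (7.69%) fell and 0 rose, beside 2.14% and 4.36% of all genes. At an unadjusted p under 0.05 in limma 8 (61.5%) lay lower and 1 (7.69%) higher, beside 17.8% and 21.5% of all genes. All 13 lay above the median gene level, where 3.49% of genes fell and 5.91% rose. There 30.6% lay lower and 28.3% higher at the unadjusted p. The one that fell was GRPEL1, the exchange factor of HSPA9 (-0.40, SE 0.04, limma adjusted p = 0.000537), and its call was lost with quantile normalization at -0.37. TRAP1, the mitochondrial HSP90, named after its value was seen, lay at -0.34 (SE 0.04) under the fold threshold.

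Of 16 genes outside the chosen symbols linked to HSF1, as targets or regulators, 3 (18.75%) rose and 1 (6.25%) fell, with a median of -0.10. Over all genes 4.36% rose and 2.14% fell. At an unadjusted p under 0.05 in limma 8 (50%) lay lower and 5 (31.25%) higher, beside 17.8% and 21.5% of all genes. Of the 16, 14 lay above the median gene level, where 30.6% of genes lay lower and 28.3% higher. The higher share of the 16 is near that background. The one that fell was FKBP4, which with PTGES3 and CACYBP is also among the HSP90 partners and was counted there. IER5, an immediate early protein that binds HSF1, rose from 9.24, 9.29 and 9.26 to 10.37, 10.34 and 10.44, a 2.172-fold difference (1.12, SE 0.04, limma adjusted p = 1.37e-05). RGS2, a regulator of G protein signalling, rose by 0.61 (SE 0.03), and HSF4, a relative of HSF1, by 0.48 (SE 0.06, limma adjusted p = 0.00127), with a mean over its 5 probe sets of 0.34 that was not called.

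Of the 15 ER chaperones left out by the choice of symbols 1 (6.67%) fell and 0 rose, beside 2.14% and 4.36% of all genes. The one was the cofactor SDF2L1 (-0.60, SE 0.04, limma adjusted p = 0.000175). The median of the 15 was -0.18 and 13 of 15 lay below 0. At an unadjusted p under 0.05 in limma 13 (86.7%) were lower and 2 (13.3%) higher, beside 17.8% and 21.5% of all genes. All 15 lay above the median gene level, where 3.49% of genes fell and 5.91% rose. There 30.6% lay lower and 28.3% higher at the unadjusted p. HSPA5, the HSP70 of the ER, lay at -0.16 (SE 0.03) and HSP90B1, its HSP90, at -0.18 (SE 0.03), beside -0.27 for HSPA8 and -0.30 for HSP90AB1 in the cytosol. DNAJB9, an HSPA5 partner, lay at 0.33 (SE 0.03, limma adjusted p = 0.000735) and SIL1, the exchange factor of HSPA5, at 0.20 (SE 0.04, limma adjusted p = 0.0119), both with all epirubicin arrays above all controls and under the fold threshold; SIL1 was named after its value was seen.

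Arrays of a group correlated at r = 0.9985 to 0.9987 and arrays of different groups at 0.9947 to 0.9949, across genes, which are not independent replicates. As a check of the labelled cells, 9 of 10 plasma cell markers had control means between 11.24 (IRF4) and 13.27 (JCHAIN), and CD38 stood lower at 6.42. Control means were 2.96 for CD3D, 2.79 for CD14 and 2.60 for EPCAM, but other markers of their lists stood higher. The T and NK marker CD7 at 7.07 and the myeloid marker CD68 at 6.87 lay above CD38, and NKG7 stood at 5.78. Of the 10 plasma cell markers, CD38 (-1.18) and IRF4 (-0.49) fell and 0 rose, with 4 lower and 2 higher (SLAMF7 at 0.23 and POU2AF1 at 0.25) at an unadjusted p under 0.05 in limma. Of 9 myeloid markers 3 rose (ITGAM, CD68 and S100A9) and 0 fell, with 4 higher and 0 lower at an unadjusted p under 0.05 in limma. Their summed level on the linear scale was 250 to 260 in controls and 441 to 470 with epirubicin, with CD14, LYZ and FCGR3A at group means under 3 throughout. ITGAM rose 13.42-fold, from a mean of 3.25 to 6.99 in log2 units, CD68 1.548-fold and S100A9 1.448-fold. As 6 of the 9 were not called, the sum does not show a rise of all of them. The part of these marker changes in the chaperone values was not tested. The 8 T and NK, 7 stromal and 5 epithelial markers had 0 called, with 5 higher and 1 lower at an unadjusted p under 0.05 in limma. All these marker counts stand beside 2.14% of all genes that fell and 4.36% that rose. At the unadjusted p 17.8% of all genes lay lower and 21.5% higher, and the 5 higher markers are near that share.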

How the data were processed

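The authors deposited a log2 expression value for each of 47481 probe sets on each of 6 arrays. No label states the scale; it was taken to be log2 from the range, 1.41 to 13.73. The submitters' processing notes name the affy package; how it was used for background, normalization and probe summary is not stated there. The 6 medians ran from 5.52 to 5.57; nothing further was normalized, so differences are relative to the bulk of transcripts.

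Probe sets naming 1 gene (43976) were used, with symbols updated through Entrez numbers against RefSeq GRCh38.p14 (43954 matched); 1558 named several genes and 1947 none. The brightest mean per gene was kept, giving 17534 genes. Groups came from the sample titles. limma 3.58.1 in R 4.3.3 (lmFit, eBayes, no covariate) compared epirubicin with shCtrl, with Benjamini-Hochberg adjustment over all genes; the thresholds stand in the series' design text. The fit was tested on simulated data.

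Members and lists were chosen with earlier results of these data known. Named are all called members, the inducible list, HSPA9, CDC37, HSF1 and the BAG genes, up to 3 members a direction under the fold threshold, and up to 3 called genes a direction from each other list; others were named for completeness after their values were seen. Promoter sequences are RefSeq's; proteins were not analysed here. No scanner files, detection calls or scan dates were used here. Precision is limited by the 3 arrays a group. Alternatives tried were a mean of distinct probe sets (chosen after seeing the data), other probe set rules, centring, quantile normalization, other thresholds, a replicate block and leaving out each array.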

Additional observations from a re-analysis of the deposited data

How the results depend on the processing

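The count of 7 fallen members stayed between 6 and 10 over the 15 settings that kept the fold threshold, and 6 or 7 of the same genes were in each; with no fold threshold 28 members were lower and 7 higher, and at a fold of at least 1.5 only CHORDC1, 1 gene, was lower. Leaving out 1 array gave 0 to 1 risen members: DNAJA4 without shCtrl replicate 1 and DNAJC28 without epirubicin replicate 3. With no fold threshold the lower and higher counts were 13 and 0 in the inducible core, 14 and 2 in HSP90 partners, 8 and 0 in mitochondrial factors, 7 and 5 in HSF1-linked genes and 11 and 2 in ER chaperones. Over all genes 13.5% were lower and 15.6% higher in that setting. At a fold of at least 1.5 the lower counts were 1 in the core and 0 in HSP90 partners, mitochondrial factors and HSF1-linked genes, and 0 HSP90 partners were higher. The ER gene SDF2L1 (1.512-fold) was still lower there, and the HSF1-linked IER5 (2.172-fold) and RGS2 (1.527-fold) were still higher. Of all 17534 genes 101 were lower and 320 higher at that fold. Quantile normalization left 0 mitochondrial factors lower.

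For the 37 named genes 524 of 551 values kept their direction and side of the threshold. Reversals touched values near 0 alone: BAG1 with quantile normalization (0.0093) and BAG6 with quantile normalization (0.0381) and without shCtrl replicate 1 or 3 (both 0.0079) or epirubicin replicate 1 (0.0019), BAG6 running from -0.0236 to 0.0079 over the arrays left out; the cause was not tested. The titles do not state that replicate numbers pair the arrays. Deviations of same-numbered arrays from their group means correlated at r = -0.06, -0.0004 and -0.007. No shared replicate effect was visible there, but such values cannot show that the cultures were unpaired. With the replicate block the counts were again 7 lower and 0 higher. Dim probe sets near the low end of the arrays, such as those of DNAJA4 and DNAJC28, have no detection calls here.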
